A study of Mus musculus with 8 samples.

Results

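The GFP- hematopoietic cluster cells of the mouse embryo were compared with the GFP- endothelial cells sorted beside them, on 4 of the 8 arrays of the study. Arrays were assigned by their labels: the 2 arrays of GFP- cluster cells and the 2 arrays of GFP- endothelial cells, with replicates of the same number on the same slide. The study measured gene expression at E10.5 in cells of Tg(Ly6a-GFP) conceptuses, in which green fluorescent protein is driven by regulatory sequence of Ly6a, the gene of Sca-1. Fathers carried the transgene and mothers were C57BL/6 x 129S1/SVImJ F1 females. Cells of 100 embryos were pooled before sorting, from the vitelline and umbilical arteries and from the region of aorta, gonad and mesonephros. GFP- cluster cells (130000 sorted) were positive for Kit, ESAM, CD31 and VE-cadherin, while GFP- endothelial cells (300000 sorted) had the other 3 proteins and lacked Kit. Both groups come from transgenic embryos and were sorted as lacking the fluorescence. The other 4 arrays hold the GFP+ cluster cells (30000) and GFP+ endothelial cells (70000).

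Blood stem and progenitor cells of the embryo arise from endothelium that lines the large arteries. Endothelial cells with blood potential switch on transcription factors such as Runx1 and Gfi1, round up, and bud into the lumen as clusters that carry Kit. Clusters are mixed: beside the rare precursors of stem cells they hold progenitors of red cells, platelets and myeloid cells. In this transgene the GFP+ cells are known to hold most stem cell activity, and the GFP- clusters are the larger compartment.

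Before amplification the RNA of a group was divided into 2 fractions, so the arrays of a group repeat the amplification, labelling and hybridisation of 1 pool of cells, and every p-value below measures only the spread between such arrays. In pooled cells a lower level from fewer cells of a type and from less RNA per cell cannot be told apart. Levels are log2 signals relative to the 75th percentile of each array (0 is that percentile), a difference is cluster minus endothelial on the log2 scale, and its error is the standard error (SE) of limma's fit. A gene rose or fell where its adjusted p was under 0.05 (Benjamini-Hochberg over 19538 genes tested). Absence of overlap between the arrays of the groups is given as a description of named genes. Its share over all genes was not counted, and nothing is read from it. The 75th percentile of the 4 arrays ran from 873 to 1100 signal units, 60.8% to 61.9% of probes were well above background, and none was saturated. Each group kept its own position on the slide, so that position and group cannot be told apart. The labels give male for every sample, while Xist (the RNA that silences an X chromosome in female cells) and Ddx3y (a gene of the Y chromosome) were both well above background on all 4 arrays. Xist was 0.67 higher in the clusters (adjusted p = 0.00329) and Ddx3y differed by -0.09 (adjusted p = 0.438).

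Of the 19538 genes, 4742 (24.3%) passed the test, 2316 (11.9%) higher and 2426 (12.4%) lower in the clusters. Every count of a gene list below is to be read beside these shares. The lists were written with earlier results of these data known. Their counts are thus a description, and no test of a list is drawn from these shares. The split was uneven in size. At least 2-fold differences were found for 355 genes that rose (1.82%) and 63 that fell (0.322%). The median over all genes tested was 0.00, and 7528 genes had an unadjusted p under 0.05. Leaving out GFP- endothelial replicate 1 or 2 left 2014 or 1964 calls, and leaving out GFP- cluster replicate 1 or 2 left 1648 or 1606. Normexp background correction left 14 calls, through 2 spots of very negative net signal on GFP- endothelial array 2, and 2739 calls once those spots were set aside.

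The genes of the sort were read as a check of the gates, not as a finding. Kit, the stem cell factor receptor that separates the groups, lay at 1.94 and 2.02 on the cluster arrays and at 1.33 and 1.35 on the endothelial arrays, a difference of 0.64 ± 0.050. Its mRNA was thus well above background in cells sorted as lacking the protein. Cdh5 (VE-cadherin), Pecam1 (CD31) and Esam, the proteins shared by both gates, differed by -0.24, -0.32 and -0.28, and none of these 3 passed after quantile normalization. Ly6a lay between -3.95 and -3.40 on all 4 arrays and differed by -0.24 (adjusted p = 0.364).

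Myb, Kel and Ppbp mark the contrast. Myb, a transcription factor needed for definitive blood formation, lay at 1.30 and 1.21 on the cluster arrays and at -2.26 and -2.18 on the endothelial arrays. Both cluster arrays were far above both endothelial arrays. The difference of 3.47 ± 0.062 (adjusted p = 3.45e-05) was the largest rise among called genes with a symbol that were measured in both groups. Its probe lies at chr10:20844736-20844795 (mm9). Kel, a blood group protein of the red cell membrane, lay at 1.37 and 1.34 against -0.99 and -1.02, again without overlap. Its difference was 2.36 ± 0.094 (adjusted p = 0.000145), with the probe at chr6:41636474-41636533 (mm9). Ppbp, a platelet chemokine precursor, went the other way: -2.41 and -2.31 in the clusters against 0.44 and 0.37 in the endothelial cells. That difference of -2.77 ± 0.066 (adjusted p = 4.32e-05, probe at chr5:91198970-91199029, mm9) was the largest fall among called genes with a symbol that were measured in both groups.

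**Figure D1:**
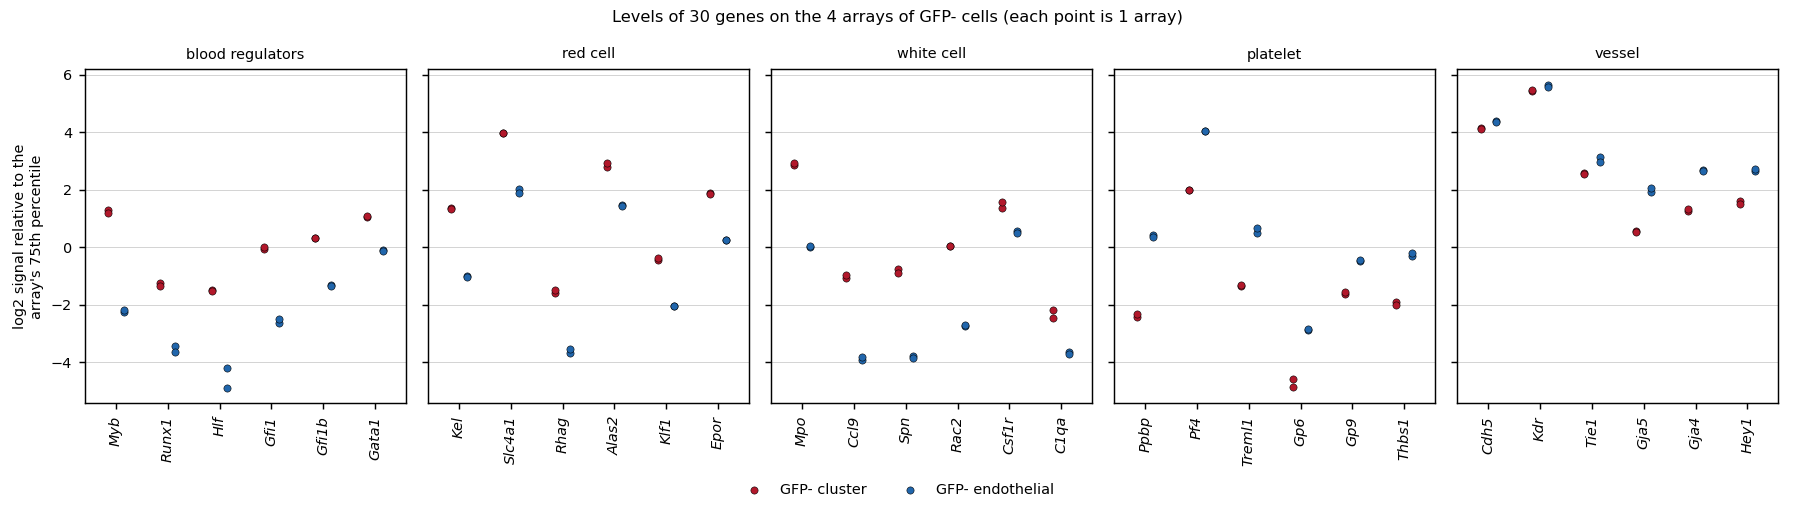
Log2 signal relative to each array's 75th percentile (y axis) of 30 genes in 5 classes on the 2 GFP- cluster arrays (red) and the 2 GFP- endothelial arrays (blue), 1 point per array. Blood regulators, red cell and white cell genes lie higher in the clusters (Myb 1.30 and 1.21 against -2.26 and -2.18), platelet genes lie lower (Ppbp -2.41 and -2.31 against 0.44 and 0.37), and the endothelial genes Cdh5 and Kdr differ by -0.24 and -0.17.

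Most of the listed transcription factors of blood emergence rose. Of 30 factors tested, 21 rose and 1 fell, while 8 did not pass, where 11.9% of all genes were called higher and 12.4% lower. Their median difference was 0.46 against 0.00 over all genes. Runx1, the factor without which arterial endothelium forms no clusters, lay at -1.25 and -1.34 in the clusters and at -3.42 and -3.64 in the endothelial cells, a rise of 2.23 ± 0.090, and of 3.66 on another probe. Gfi1, a repressor that shuts down endothelial genes in emerging blood cells, was at -0.05 and 0.01 against -2.62 and -2.48, a rise of 2.53 ± 0.070. Its paralog Gfi1b rose by 1.64 ± 0.071, from -1.31 and -1.34 to 0.32 and 0.32. Hlf, a factor of stem cells and their precursors, rose by 3.06 ± 0.21, and its endothelial arrays were wide apart at -4.90 and -4.21 while the cluster arrays lay at -1.47 and -1.52. For each of these 4 genes the arrays of the groups did not overlap, which is a description only.

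Smaller differences were found for other factors. Tal1, Meis1, Hhex, Lyl1 and Erg rose by 0.48, 0.44, 0.42, 0.35 and 0.30, and Lmo2 fell by 0.29. The fall of Lmo2 was lost after quantile normalization and without GFP- cluster array 2 or either GFP- endothelial array. Another probe of Erg differed by 0.01, and with slide as a replicate block the rise of Erg did not pass (adjusted p = 0.0527). Gata2 and Fli1, which work in both lineages, differed by 0.16 (adjusted p = 0.148) and by -0.13, and Sox17, an arterial and hemogenic endothelial factor, by 0.15 (adjusted p = 0.236). None of these 3 passed. Spi1 (PU.1), the main myeloid factor, and Ikzf1 (Ikaros), a lymphoid and stem cell factor, were not well above background on either endothelial array, so only bounds can be given. A bound sets the bright group's mean against the lowest signal counted as above background on each array of the dim group. Where the gene's own signal there was higher, that signal was used instead. Genes with a bound were picked for signal well above background in the bright group only. The adjusted p of such a gene rests on background signal in the dim group, so it is not read as support. Counts of the lists include such genes. The bound of Ikzf1 equals its plain difference. Spi1 was at least 2.64-fold higher in the clusters (means -3.96 and -5.59, adjusted p = 0.00762). Ikzf1 was at least 9.05-fold higher (means -2.05 and -5.23, adjusted p = 0.000712), the largest such bound among genes with a symbol that were higher in the clusters.

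Red cell genes rose in large part. Erythroid cells take up iron through transferrin receptors, make heme in the mitochondrion, fill with globin, and build a membrane skeleton anchored by the anion exchanger Slc4a1 and the Rh complex. Gata1 and Klf1 switch on most of these genes, and erythropoietin acts through Epor. In the clusters 14 of 17 erythroid regulators rose and none fell (median 0.48, and 9 to 14 rose when an array was left out), 18 of 23 red cell membrane genes rose and none fell (median 1.38), 13 of 23 heme and iron genes rose and 1, Hebp1, fell (median 0.36), and 8 of 10 globin genes rose and none fell (median 0.76). The fall of Hebp1 was lost after quantile normalization and whenever an array was left out. The summed signal of the membrane list was 72.6 to 74.3 times the 75th percentile on the cluster arrays and 50.7 to 51.3 on the endothelial arrays.

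The promoters of some of these genes are shown because short GATA motifs lie close to the start in part of the lists. Sequences are the 120 bases before the RefSeq start (GRCm38.p6), read in the direction of the gene, with capitals at every match to AGATAA or TGATAA or AGATAG or TGATAG on either strand (matches may overlap). The first 6 genes rose in the clusters and the last 3, subunits of the platelet receptor for von Willebrand factor, fell. Only promoters with a match are shown, and many genes of these lists held none. Gp9, the remaining subunit gene of that receptor, also fell, held no match within 250 bases before its start, and is not shown.
Kel: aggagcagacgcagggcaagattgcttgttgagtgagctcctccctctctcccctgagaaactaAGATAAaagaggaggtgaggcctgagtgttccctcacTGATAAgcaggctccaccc
Rhag: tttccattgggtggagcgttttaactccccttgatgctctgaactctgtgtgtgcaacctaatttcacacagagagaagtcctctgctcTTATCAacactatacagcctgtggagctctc
Rhd: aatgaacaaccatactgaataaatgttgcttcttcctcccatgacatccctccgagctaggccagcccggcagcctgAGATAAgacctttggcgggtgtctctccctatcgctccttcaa
Icam4: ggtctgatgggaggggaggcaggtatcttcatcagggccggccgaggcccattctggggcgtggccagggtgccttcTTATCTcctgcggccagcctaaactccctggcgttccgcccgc
Alas2: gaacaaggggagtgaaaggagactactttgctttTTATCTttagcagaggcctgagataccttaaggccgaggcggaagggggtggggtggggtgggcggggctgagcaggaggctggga
Cpox: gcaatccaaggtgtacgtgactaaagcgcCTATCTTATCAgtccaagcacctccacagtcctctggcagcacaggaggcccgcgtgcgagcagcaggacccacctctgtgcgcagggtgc
Gp1ba: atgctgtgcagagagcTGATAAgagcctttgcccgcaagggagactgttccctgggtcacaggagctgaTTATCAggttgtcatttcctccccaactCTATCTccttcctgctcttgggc
Gp1bb: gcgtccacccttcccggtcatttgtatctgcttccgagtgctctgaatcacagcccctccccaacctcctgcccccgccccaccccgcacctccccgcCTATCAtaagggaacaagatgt
Gp5: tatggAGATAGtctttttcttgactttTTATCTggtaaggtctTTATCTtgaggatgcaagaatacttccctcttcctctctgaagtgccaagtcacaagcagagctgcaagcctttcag
The Kel stretch is chr6:41704326-41704445 on the minus strand and holds 2 matches, and the Gp1ba stretch is chr11:70639002-70639121 on the plus strand and holds 3. Within 250 bases before the start, 15 of 38 tested genes of the red cell membrane, heme and globin lists with a promoter in the table held a match (39.5%), and so did 14 of the 26 that rose (53.9%). By list it was 8 of 14 membrane genes (57.1%), 4 of 7 globin genes (57.1%) and 3 of 17 heme and iron genes (17.6%). The share was 18.4% of 11673 promoters of genes tested and 27.1% of all 27025 promoters. Of 13 platelet genes that fell, 5 (38.5%) held one. The motif was thus found before genes that rose and before genes that fell, and a match is a description of letters, not of binding.

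Among regulators, Klf1, the factor that activates adult globin and membrane genes, lay at -0.44 and -0.37 in the clusters and at -2.03 and -2.05 in the endothelial cells, a rise of 1.63 ± 0.14. Epor, the erythropoietin receptor, lay at 1.88 and 1.85 against 0.26 and 0.27, a rise of 1.61 ± 0.041. Gata1 rose by 1.17 ± 0.054, from -0.08 and -0.13 to 1.043 and 1.096. Nfe2, a factor of red cells and platelets, rose by 1.75 ± 0.12. None of these 4 overlapped between the groups, again a description only. Jak2 and Stat5a, which carry the signal of Epor, rose by 0.28 and 0.44. Stat5b differed by 0.21 and did not pass.

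In the membrane, Slc4a1 (the anion exchanger band 3) was at 3.97 and 3.96 in the clusters and at 2.03 and 1.89 in the endothelial cells, a rise of 2.00 ± 0.057. Rhag, whose promoter is shown above and whose protein holds the Rh complex together, was at -1.57 and -1.49 against -3.66 and -3.52, a rise of 2.06 ± 0.28. Rhd and Icam4, further proteins of that complex, rose by 1.55 ± 0.060 and 1.58 ± 0.11. Xk, the partner of Kel in the membrane, rose by 2.36 ± 0.17, the same as Kel to 2 decimals. The skeleton genes Ank1 (ankyrin) and Epb42 rose by 2.17 and 1.47. The 5 genes that did not pass were Aqp1, Slc43a1, Cd59a, Gypc and Cd24a, between -0.24 and 0.17; Aqp1, Cd59a and Cd24a are also used by many other cells. Cd24a passed with slide as a replicate block (adjusted p = 0.0386).

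In heme and iron handling, Tfr2, a transferrin receptor that binds to Epor, rose by 1.83 ± 0.071. Slc25a37 (mitoferrin), which carries iron into the mitochondrion, was at 3.86 and 3.77 against 2.16 and 2.13, a rise of 1.67 ± 0.048. Alas2, the erythroid enzyme of the first step of heme synthesis, was at 2.78 and 2.93 against 1.49 and 1.44, a rise of 1.39 ± 0.076. Later enzymes were uneven. Cpox rose by 1.29, Fech by 0.67, Ppox by 0.65, Uros by 0.59 and Urod by 0.27, while Alad (0.09) did not pass. The general transferrin receptor Tfrc rose by 0.36 ± 0.052.

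Globin signals were high in both groups. The embryonic genes Hba-x, Hbb-y and Hbb-bh1 rose by 1.03, 0.46 and 0.36, and another probe of Hbb-y differed by 0.08. Hba-x lay at 6.88 and 6.93 in the clusters and at 5.92 and 5.83 in the endothelial cells. Ahsp, the chaperone of free alpha globin, rose by 0.98 ± 0.068. Hba-a1 and Hba-a2, near-identical copies that probes may not separate, rose by 0.94 and 0.33. The summed globin signal was 1488 to 1491 times the 75th percentile in the clusters and 1048 to 1057 in the endothelial cells. Whether red cells or their free RNA in the sorted samples contribute to these levels was not tested.

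**Figure D2:**
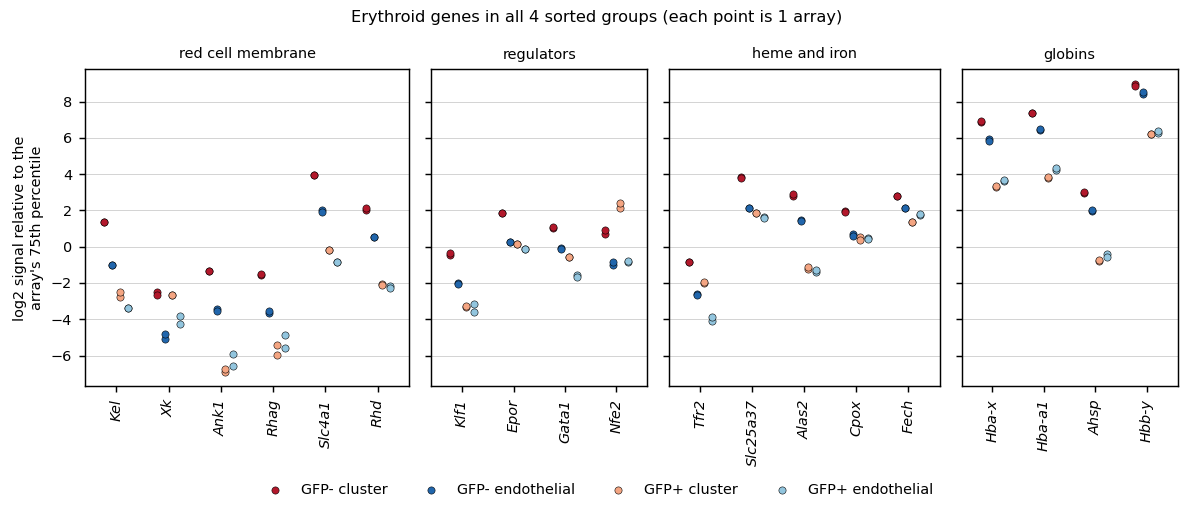
Log2 signal relative to each array's 75th percentile (y axis) of 19 erythroid genes in 4 roles on all 8 arrays, 1 point per array: GFP- cluster (dark red), GFP- endothelial (dark blue), GFP+ cluster (light red) and GFP+ endothelial (light blue). For Kel, Slc4a1, Alas2 and Hba-x the GFP- cluster arrays are the highest of the 4 groups and the GFP- endothelial arrays come next.

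Genes of the white blood cell cytoplasm and surface rose in large part. Of 42 pan blood cell genes, 27 rose and 3 fell, while 12 did not pass (median 0.96). Spn (CD43, the sialomucin of leukocytes) was at -0.75 and -0.87 in the clusters and at -3.78 and -3.83 in the endothelial cells, a rise of 2.995 ± 0.066 (2.29 on another probe). Rac2, a GTPase specific to blood cells, rose by 2.76 ± 0.042, from -2.72 and -2.68 to 0.06 and 0.06. Ptprc (CD45) rose by 1.77, Was by 1.76 and Coro1a by 1.70, the last 2 being regulators of the actin cortex. Itga4, the integrin subunit that binds Vcam1, rose by 1.41 ± 0.059, from -0.99 and -0.90 to 0.45 and 0.47. The 3 that fell were Cd34 (-0.42), Lcp1 (-0.27) and Cyba (-0.19), and Cd34 is also a sialomucin of endothelium. The summed signal of the list was lower in the clusters, at 155.0 to 155.4 against 169.1 to 175.0. Without either GFP- cluster array none of the 3 falls passed, and without either GFP- endothelial array 1 did.

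Among the 10 largest rises were 2 further genes of white cells, Wdfy4 (2.76 ± 0.046), which serves antigen presentation in dendritic cells, and Myo1g (2.63 ± 0.064), a myosin of the blood cell membrane. The hormone precursor gene Gcg (glucagon) was among them too, at -1.66 and -1.61 in the clusters and at -4.22 and -4.10 in the endothelial cells, a rise of 2.53 ± 0.084. Beside Ikzf1, the largest bounds were those of Gpr171 (at least 6.21-fold, means -2.75 and -5.87, adjusted p = 5.71e-05), Tespa1 (at least 5.45-fold, means -2.94 and -7.24, adjusted p = 0.000575), Rassf5 (at least 5.13-fold, means -3.02 and -6.01, adjusted p = 0.00051) and Pstpip1 (at least 4.91-fold, means -3.05 and -5.54, adjusted p = 0.000337). Of the 19538 genes tested, 231 had a bound with a positive log2 value as higher in the clusters, and 114 as lower. In these genes no probe was well above background on either array of the dim group. This selection set the direction, so the adjusted p-values given with bounds add no support to it.

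Monocyte and macrophage genes rose in large part. Of 33 monocyte and macrophage genes, 26 rose and 1 fell, while 6 did not pass (median 1.16). Csf1r, the receptor that macrophages need to survive, was at 1.38 and 1.58 against 0.55 and 0.51, a rise of 0.95 ± 0.078 (0.33 on another probe). Adgre1, a surface marker of macrophages, rose by 1.49 ± 0.11, C1qa (a complement subunit made by macrophages) by 1.35 ± 0.11, Cx3cr1 by 1.43 (0.72 on another probe) and Mrc1 by 1.01. The gene that fell was Pf4, which also stands in the platelet list. Without it the summed signal of the list was 41.2 to 41.8 in the clusters and 29.7 to 30.1 in the endothelial cells. Macrophages in the sorted clusters, against expression by progenitors, were not tested.

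Granule genes of myeloid and mast cells were uneven. Of 14 tested, 4 rose, 2 fell and 8 missed the threshold, and their median of 0.19 turned to -0.05 without GFP- cluster array 2. Mpo, the enzyme of azurophil granules and an early mark of myeloid progenitors, was at 2.86 and 2.92 in the clusters and close to 0 in the endothelial cells, a rise of 2.88 ± 0.068. Prtn3, a protease of the same granules, rose by 1.53 ± 0.19, while its neighbours in function Elane (-0.05, adjusted p = 0.934) and Ctsg (0.17) did not pass. The 2 that fell were S100a9 and S100a8, the calprotectin subunits of neutrophils. Not well above background on either cluster array, they were at least 10.99-fold (means -7.47 and -1.75, adjusted p = 0.000145) and at least 4.49-fold lower (means -7.28 and -3.04, adjusted p = 0.000265). Cstdc5 and Stfa1, cysteine protease inhibitors of a family of similar copies, were at least 8.89-fold (means -5.04 and -1.89, adjusted p = 0.00102) and at least 8.19-fold lower (means -5.59 and -2.17, adjusted p = 3.67e-05). A further bound, that of the potassium channel gene Kcnh7, rests on endothelial arrays at -4.94 and -2.65 and did not pass (adjusted p = 0.158, and 0.0156 with slide as a replicate block).

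Chemokines of myeloid cells rose with them. Of 22 chemokines and receptors, 12 rose and 4 fell, while 6 did not pass (median 0.86). Ccl9, a macrophage chemokine, was at -1.05 and -0.96 in the clusters and at -3.93 and -3.81 in the endothelial cells, a rise of 2.86 ± 0.066. Ccl4, Ccl3 and Ccl2 rose by 1.37, 1.19 and 1.16. In the opposite direction went Cxcl12 (-0.54 ± 0.055) and its receptors Cxcr4 (-1.19 ± 0.090) and Ackr3 (-0.38), the chemokine axis that holds stem cells in the marrow and guides arteries. Cxcr4 lay at -2.62 and -2.78 in the clusters and at -1.51 and -1.50 in the endothelial cells. The fourth that fell, Cx3cl1, is made by endothelium. Without either GFP- cluster array 2 of the 4 falls passed.

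Receptors for blood growth factors differed from gene to gene. Of 28 tested, 11 rose and 3 fell, while 14 did not pass (median 0.23), and 1 fell when any 1 of the 4 arrays was left out. Csf2rb, the beta subunit shared by receptors for GM-CSF, IL-3 and IL-5, was at 0.27 and 0.16 against -1.63 and -1.64, a rise of 1.85 ± 0.054 (0.71 on another probe). Its copy Csf2rb2, which serves IL-3 alone, rose by 1.65 (0.91 on another probe), and the 2 near-identical genes may share probe signal. Il6ra, a receptor for IL-6, rose by 1.68 ± 0.10. Flt3, a receptor of lymphoid and myeloid progenitors, rose by 2.44 ± 0.50, with endothelial arrays at -4.84 and -3.65. Csf3r, the G-CSF receptor, was high in both groups (3.96 and 3.87 against 3.79 and 3.72) and did not pass. The interferon and TNF receptors Ifnar1, Ifnar2, Ifngr1, Ifngr2 and Tnfrsf1a lay between -0.09 and -0.01. Of 17 lymphoid genes Flt3 alone rose and 2 fell (4 with slide as a replicate block), while 14 did not pass. The rise of Flt3 was lost without GFP- cluster array 1 or 2 or GFP- endothelial array 1, and both falls without any 1 of the 4 arrays.

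Platelet genes divided. Platelets bud from megakaryocytes, whose progenitors share Gata1 and Nfe2 with red cell progenitors, while granule proteins and adhesion receptors mark maturity. Of 37 genes tested, 8 rose and 16 fell, while 13 did not pass (median -0.29). Among those that rose were F13a1 (1.66 ± 0.058), a transglutaminase also made by macrophages, and the transcription factor Gata1 (1.17). The ADP receptor P2ry1 and the ATP receptor P2rx1 rose by 0.74 ± 0.066 and 0.63 ± 0.089, the cyclooxygenase Ptgs1 by 0.26 and the granule gene Slc35d3 by 0.20. Selp (P-selectin, which endothelium also stores) was not well above background on either endothelial array and was at least 2.02-fold higher (means -4.37 and -5.69, adjusted p = 0.0016). Without GFP- cluster array 2, 5 genes of the list rose.

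Surface receptors and granule proteins were among the 16 that fell. Pf4 (platelet factor 4, at chr5:91202275-91202334 in mm9, beside the Ppbp probe) was at 2.00 and 2.00 in the clusters and at 4.05 and 4.03 in the endothelial cells, a fall of 2.04 ± 0.057 on the log2 scale. Treml1, a receptor stored in granules, was at -1.36 and -1.30 against 0.48 and 0.68, a difference of -1.91 ± 0.075. Gp6, the collagen receptor, was at -4.87 and -4.56 against -2.88 and -2.85, a difference of -1.85 ± 0.19. Every one of these 3 genes separated the groups without overlap, again a description only.

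The receptor for von Willebrand factor has 4 subunits, and all of them fell. Gp1ba, whose promoter holds 3 of the motifs above, was at -2.98 and -3.05 in the clusters and at -1.76 and -1.68 in the endothelial cells, a difference of -1.29 ± 0.050. Gp9 differed by -1.14 ± 0.065 and Gp1bb by -0.83 ± 0.18. Gp5 differed by -1.87 ± 0.32, but was well above background on only part of the cluster arrays, at -5.23 and -4.16. Tubb1, the tubulin of the platelet rim, differed by -1.11, and Thbs1 (thrombospondin, also made by vessel walls) by -1.70 ± 0.065. Itga2b, the fibrinogen receptor subunit that marks the first blood cells as well, lay at -2.37 and -2.29 against -2.05 and -2.03 and did not pass (-0.29 ± 0.081, adjusted p = 0.0521). Vwf itself differed by -0.35 (adjusted p = 0.0565, and 0.0285 with slide as a replicate block). Platelets bound to the sorted endothelial cells, and the RNA they carry, were not tested.

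**Figure D3:**
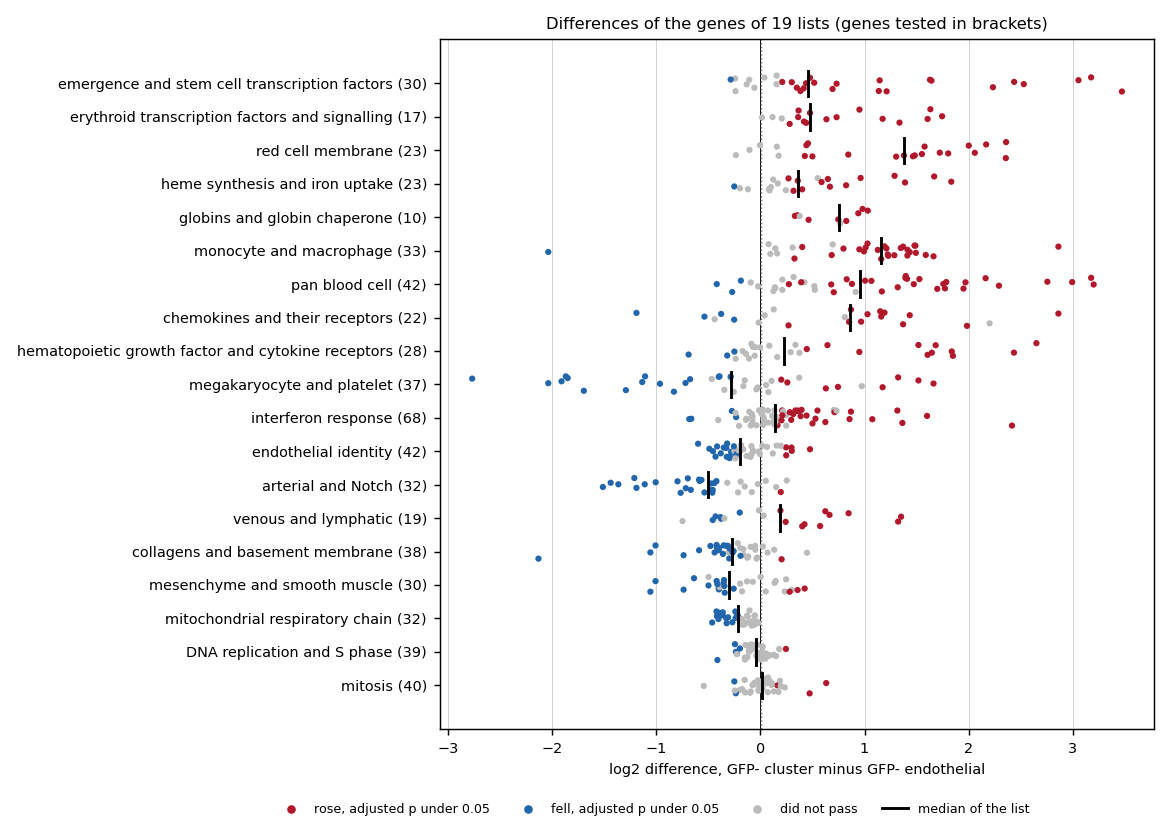
Log2 difference between GFP- cluster and GFP- endothelial cells (x axis) for every tested gene of 19 lists (rows, number tested in brackets), 1 point per gene, red for genes that rose, blue for genes that fell and grey for those that did not pass; black bars are list medians and the dotted line is the median of all genes. Red cell membrane (median 1.38) and macrophage genes (median 1.16) lie furthest right, arterial genes (median -0.51) furthest left.

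Endothelial genes lay slightly lower in the clusters. Both gates required VE-cadherin, CD31 and ESAM, so the presence of endothelial genes in the clusters is not read as a finding. Of 42 endothelial genes, 18 fell and 5 rose, while 19 missed the threshold (median -0.19), and none differed by as much as 2-fold. The largest fall was that of Podxl, a sialomucin of the luminal surface (-0.60 ± 0.056), which lay at -0.71 and -0.77 against -0.15 and -0.14. Tie1, a receptor of the angiopoietin system, fell by 0.49 ± 0.073, and Nos3, the endothelial nitric oxide synthase, by 0.46 ± 0.047. Kdr, the main receptor for VEGF, lay at 5.45 and 5.46 in the clusters and at 5.66 and 5.58 in the endothelial cells, and its difference of -0.17 ± 0.051 did not pass (adjusted p = 0.0663). Tek, the receptor for angiopoietins, differed by -0.09 (adjusted p = 0.449), with 1 cluster array at the endothelial level. After quantile normalization 6 of the 42 fell in place of 18, so that the count depends on how the arrays are scaled. It also depended on each of the 4 arrays: 6 or 2 fell without GFP- cluster array 1 or 2, and 5 or 4 without GFP- endothelial array 1 or 2.

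Arterial genes fell. Of 32 arterial and Notch genes, 22 fell, 1 rose and 9 did not pass (median -0.51), and 22 also fell after quantile normalization. Notch signalling, through ligands such as Dll4 and Jag2 and targets of the Hey and Hes families, gives arteries their identity. Gja5 and Gja4, the connexins of arterial gap junctions, lay at 0.56 and 0.55 against 1.93 and 2.06, and at 1.26 and 1.34 against 2.69 and 2.64. Their differences were -1.44 ± 0.058 and -1.37 ± 0.063, with no overlap between the groups, and another probe of Gja5 differed by -0.70.

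Notch ligands, 1 receptor and several targets fell. Hey1, a Notch target of arteries, was at 1.62 and 1.52 in the clusters and at 2.64 and 2.72 in the endothelial cells, a difference of -1.11 ± 0.070. Hes5, another target, differed by -1.21 ± 0.12, while Hes1 (0.25) did not pass. The ligands Jag2, Dll4 and Jag1 fell by 0.80, 0.46 and 0.44. Of the receptors Notch4 fell by 0.42 ± 0.042, and Notch1 (-0.03) and Notch3 (0.05) did not pass. Hey2 was not well above background on either cluster array and was at least 1.42-fold lower (means -6.21 and -4.69, adjusted p = 0.026). Efnb2, the arterial guidance ligand, fell by 0.46 (-0.04 on another probe) and the kinase Bmx by 0.70.

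Venous and lymphatic genes were mixed, 10 of 19 higher, 5 lower and 4 not passing (median 0.19). The 5 became 1 without either GFP- cluster array, 2 without either GFP- endothelial array and 3 after quantile normalization. Nr2f2, the factor that sets venous identity by repressing Notch, was at 2.18 and 2.17 in the clusters and at 1.68 and 1.82 in the endothelial cells, a rise of 0.42 ± 0.058. Stab2 and Lyve1, hyaluronan receptors of sinusoidal, lymphatic and yolk sac vessels, rose by 0.66 ± 0.070 and 0.62 ± 0.074. Prox1, which directs lymphatic fate, rose by 1.35 ± 0.12 from a low level (-4.66 and -4.41). Ephb4, the venous partner of Efnb2, fell by 0.46 ± 0.041 (-0.25 on another probe).

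Signals that vessels send also differed. Angpt1, a ligand of Tek, was at -0.01 and -0.04 in the clusters and at -1.64 and -1.69 in the endothelial cells, a rise of 1.64 ± 0.057. Kitl, the ligand of Kit, was lower in the clusters by 0.62 ± 0.064, at -0.51 and -0.46 against 0.22 and 0.05. Bmp2, Bmp6 and Bmp4 rose by 0.74, 0.64 and 0.31 (Bmp4 not with slide as a replicate block, adjusted p = 0.0509), and the BMP target genes Id1 and Id3 fell by 0.43 and 0.57. Over the whole list of 27 endothelial ligands, 6 rose and 10 fell, while 11 did not pass, and its median of 0.01 turned negative (-0.07) after quantile normalization. Without GFP- cluster array 1 or 2, 2 or 4 rose and 6 or 4 fell, and without GFP- endothelial array 1 or 2, 4 or 3 rose and 5 fell.

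Matrix and wall genes were lower in the clusters. Of 38 collagen and basement membrane genes, 21 fell, 1 rose and 16 did not pass (median -0.27). Of 30 genes of mesenchyme and smooth muscle, 14 fell, 3 rose and 13 did not pass (median -0.30). Dcn and Lum, proteoglycans of connective tissue, were among the largest falls at -1.01 ± 0.062 and -1.06 ± 0.066. Dcn lay at 0.25 and 0.36 against 1.38 and 1.25. The fibrillar collagens Col1a1 and Col1a2 fell by 0.40 and 0.40 and the smooth muscle actin Acta2 by 0.42. The defining mesenchymal receptors Pdgfra (0.00) and Pdgfrb (-0.13) and the factor Twist1 (-0.18) did not pass. The summed signal of the mesenchymal list was 51.4 to 52.0 in the clusters and 60.1 to 60.3 in the endothelial cells, and its part in the fall of the matrix genes was not tested. Without GFP- cluster array 1 or 2, 8 or 7 collagen genes and 6 or 8 mesenchymal genes fell, and without GFP- endothelial array 1 or 2, 7 or 10 and 9 or 7.

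Markers of other tissues were measured in both groups. Of 24 genes of endoderm and yolk sac, 8 fell, 3 rose and 13 did not pass. The secreted liver and yolk sac proteins Afp (-0.72 ± 0.044), Alb (-0.92) and Fgb (-1.003) fell, with Afp at 2.36 and 2.36 in the clusters and at 3.04 and 3.11 in the endothelial cells, while Epcam was not well above background and was not tested. Of 15 neural genes 5 fell, among them Stmn2 (-0.91 ± 0.080), and none rose. Leaving out 1 of the 4 arrays left 5 to 7 endoderm and 2 to 3 neural genes that fell. Of 12 germ cell genes tested, Kit alone rose, 2 fell and 9 did not pass, among them Ddx4 (0.46, adjusted p = 0.0878), which was well above background on both cluster arrays and not on both endothelial arrays. The 2 falls were lost on leaving out any of the 4 arrays. Pou5f1, Dppa3 and Dazl were not well above background on both arrays of any group and were not tested. Germ cells also carry Kit.

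The genes of vessel tone and clotting were split, with 5 of 28 higher, 9 lower and 14 not passing. Without GFP- cluster array 1 or 2, 1 or 2 were higher and 5 or 6 lower, and without GFP- endothelial array 1 or 2, 4 or 3 were higher and 5 lower. Klf4, which responds to flow, and Klf6 rose by 0.47 and 0.42, and Klf2 differed by 0.17 and did not pass. Ramp3 and Plat (tissue plasminogen activator) fell by 0.96 and 0.68. The caveolins Cav1 and Cav2 fell by 0.48 and 0.51.

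The study asked about inflammatory signalling in fetal blood formation, and the median differences of its genes were small here. Of 68 interferon response genes, 26 rose and 4 fell, while 38 did not pass (median 0.14), where 11.9% of all genes were called higher and 12.4% lower. After quantile normalization 19 of the 68 rose, and 10 to 22 when an array was left out. Ifitm1 was at 1.510 and 1.502 in the clusters and at -0.92 and -0.90 in the endothelial cells, a rise of 2.42 ± 0.22. The immunoproteasome subunits Psmb9 and Psmb8 rose by 1.32 and 1.07, and the receptor Ifih1 and the factor Irf1 by 0.71 and 0.62. Of the 4 that fell, Isg15 fell by 0.66 ± 0.080, Xaf1 by 0.68, B2m by 0.27 and Nmi by 0.23, and Rsad2 (0.01), Usp18 (-0.08) and Stat2 (0.02) did not pass.

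Of 44 genes of TNF, NF-kB and Toll-like receptor signalling, 11 rose and 2 fell, while 31 did not pass (median 0.14). Over all genes 11.9% were called higher and 12.4% lower. When an array was left out, 6 to 10 of the 44 rose. Those that rose include Ccl2 (1.16), Cxcl1 (0.85), Cd14 (0.68), Tnfaip3 (0.48) and Vcam1 (0.44). Tlr4 and its partner Ly96 fell by 0.21 and 0.26. Without GFP- cluster array 1 only 1 gene of the list fell, and without any other array none did. The NF-kB subunits Nfkb1 (0.18), Rela (0.17), Nfkb2 (-0.07) and Relb (-0.11) did not pass, nor did Myd88 (0.13).

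Few proliferation genes passed, where 24.3% of all genes did (11.9% higher and 12.4% lower). Counts close to these shares are not read as results about a list. Of 39 S phase genes, 1 rose and 5 fell, while 33 did not pass, and the median of -0.04 turned to 0.04 after quantile normalization. None of the 5 falls passed when any 1 of the 4 arrays was left out. Of 40 mitosis genes, 3 rose (Cenpf, Mki67 and Ccnb1, by 0.63, 0.47 and 0.16), 2 fell (4 with slide as a replicate block) and 35 did not pass; 8 rose after quantile normalization, and another probe of Ccnb1 differed by -0.10. Mki67, the protein of cycling cells, lay at 5.16 and 5.09 against 4.64 and 4.66. Myc, which drives growth, rose by 0.60 ± 0.045, and the Cdk inhibitor Cdkn2c by 0.66 ± 0.084. Of 32 genes of the respiratory chain 17 fell, none rose and 15 did not pass (median -0.22, lowest Ndufa4 at -0.46), but only 3 fell after quantile normalization, and 3 or 3 without GFP- cluster array 1 or 2 and 9 or 4 without GFP- endothelial array 1 or 2. Of 33 ribosomal protein genes 4 fell and none rose, and none fell after quantile normalization or without either GFP- cluster array.

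Among amino acid transporters 4 of 17 rose, and 3 of them by more than 2-fold: Slc6a9, the glycine carrier that feeds heme synthesis (1.91 ± 0.046), Slc38a5, a glutamine and glycine carrier (1.87 ± 0.046), and Slc16a10 (1.51 ± 0.13). Slc38a5 lay at 1.94 and 1.91 in the clusters and at 0.04 and 0.07 in the endothelial cells. Of the 28 Hox genes 6 rose, among them Hoxa9 (0.52) and Hoxa10 (0.40), 1 fell and 21 did not pass. The 6 became 2 without either GFP- cluster array and 3 without either GFP- endothelial array. Of the falls among the 10 largest not yet named, Syt10 (-1.60 ± 0.25) is a synaptotagmin, Vwa1 (-1.57 ± 0.094) a matrix protein, and Fam163a differed by -1.38 ± 0.098.

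The difference between clusters and endothelial cells was not the same in GFP- as in GFP+ cells. The GFP+ contrast has its own 4 arrays, and 9840 of the 19538 genes (50.4%) passed in it. The interaction, the GFP- difference minus the GFP+ difference, passed for 6085 genes (31.1%), 3022 above 0 and 3063 below. The interaction was above 0 and passed for 16 of 23 membrane genes, 16 of 23 heme and iron genes and 8 of 10 globin genes, and below 0 for 1, 0 and 0 of them. The median difference of the membrane list was 1.38 in GFP- cells and 0.19 in GFP+ cells. Kel rose by 2.36 in GFP- cells and by 0.77 in GFP+ cells (interaction adjusted p = 0.00204), and Slc4a1 by 2.00 and 0.66 (interaction adjusted p = 0.00127). Rhag and Alas2 differed by -0.49 and 0.18 in GFP+ cells and did not pass there. Rhag was not well above background on either GFP+ cluster array, nor on both GFP+ endothelial arrays.

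For pan blood cell genes the interaction was below 0 and passed for 32 of 42, and above 0 for none, with medians of 0.96 in GFP- and 1.92 in GFP+ cells. Mpo rose by 2.88 and 4.92 (interaction adjusted p = 0.0011) and Myb by 3.47 and 4.49 (interaction adjusted p = 0.00219). Endothelial genes fell less in GFP- cells. In 25 of 42 identity genes, 19 of 32 arterial genes and 25 of 38 matrix genes the interaction was above 0 and passed, and in 1, 2 and 1 of them it was below 0 and passed. The endothelial median was -0.19 in GFP- and -0.54 in GFP+ cells. For 20 of 37 platelet genes the interaction was below 0 and passed, and for 3 above, with medians of -0.29 in GFP- and 0.02 in GFP+ cells. Pf4 fell by 2.04 in GFP- and by 0.36 in GFP+ cells (interaction adjusted p = 0.00111), and Gp9 went opposite ways, -1.14 and 1.08 (interaction adjusted p = 0.0011).

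**Figure D4:**
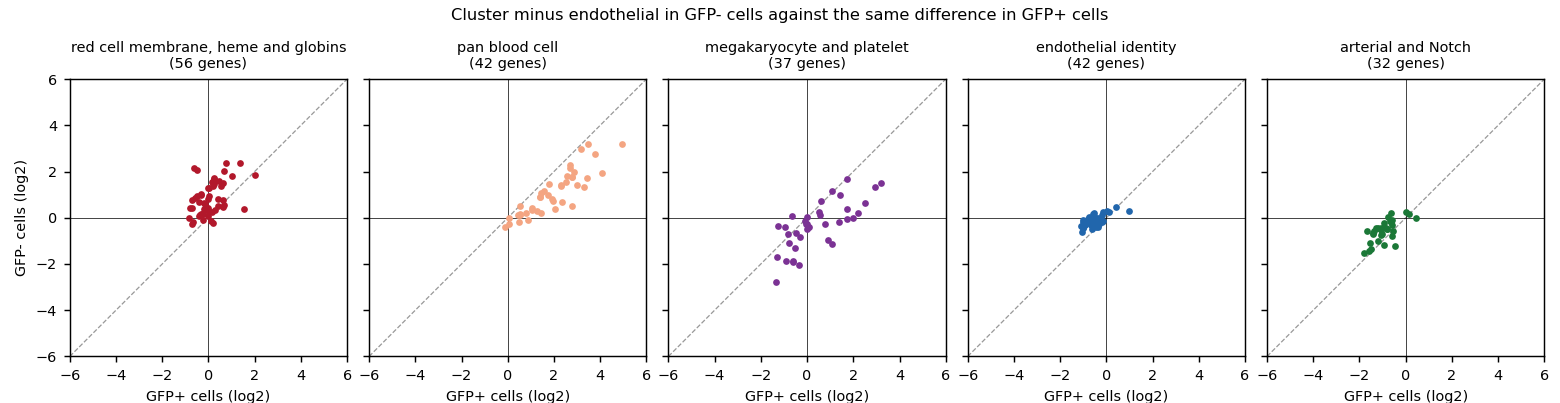
Log2 difference cluster minus endothelial in GFP- cells (y axis) against the same difference in GFP+ cells (x axis), 1 point per tested gene, in 5 panels by gene list; the dashed line marks equal differences. Red cell genes lie above the line (membrane medians 1.38 and 0.19), pan blood cell genes below it (medians 0.96 and 1.92), and endothelial genes (medians -0.19 and -0.54) spread along the x axis.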

How the data were processed

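Expression was measured on 8 single-colour Agilent arrays, 2 for each of 4 sorted groups. Per the labels' protocols each RNA sample was split into 2 fractions, amplified, and 50 ng were labelled with Cy3. The deposited files hold spot intensity from Agilent Feature Extraction 10.10.1.1 (per the file headers and the submitters' processing notes), background-corrected by that software. The members and gene lists were chosen with earlier results of these data known.

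From 43020 non-control spots, spots with outlier flags were left out and spots of a probe averaged. This gave 39419 probes, and 10 were lost to flags. Probes were named by accession (26049) or current symbol (3194) through the RefSeq table, and 10176 kept the name in the file. Values were log2 processed signals minus the 75th percentile of the array, the brightest probe stood for a gene, and genes were tested where at least 1 group had both arrays well above background. Differences were tested with limma 3.58.1 in R 4.3.3 (lmFit and eBayes, all 8 arrays, 1 mean per group, two-sided, Benjamini-Hochberg). The script was tested on simulated data with 200 of 19538 genes changed, far fewer than were called here, so its shares do not carry over directly. It recovered 42 of 100 genes changed by 0.5 and 71 of 100 changed by 1 on the log2 scale. In that simulation 5 unchanged genes were called. A gene that did not pass may thus still differ. Genes named are the 10 called genes with the largest rise and the 10 with the largest fall (with a symbol, above background in both groups, same sign on each slide), the 5 largest bounds and the 5 largest interactions in either direction, the sort genes, the markers, and members of the lists beside their counts. A few genes under this rule are not reported here. Of 173 called genes named, 29 had another probe above background, and for 1 it had the opposite sign.

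Same-numbered arrays share a slide. Their deviations correlated in every pair of groups (r from 0.14 to 0.36 over genes), so the numbers pair the arrays. The main fit did not use this pairing, nor did any SE or adjusted p given without mention of a block. Alternatives were quantile normalization, normexp background correction with an offset of 50, the deposited value table, both other filters, the mean of a gene's probes, slide as a block, the 4 arrays alone, trend and robust moderation, each array left out, and, chosen after seeing the data, normexp without spots of net signal under -100. The deposited table has 35145 rows and a median of 198 in each column, and correlated at 0.997 or more with the scanner signal of each array on the log2 scale. How it was normalized is unknown here. Probe positions are those of mm9 per the file headers. The number of arrays limits the precision.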

Additional observations from a re-analysis of the deposited data

Results flagged for a closer look

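The difference between clusters and endothelial cells was compared between GFP- and GFP+ cells by the interaction of limma's fit (Benjamini-Hochberg over 19538 genes) for 31 genes, and 25 passed at 0.05, where 31.1% of all genes did. The genes were picked for large differences or interactions or as markers, so nothing is read from that share. Values are the GFP- difference minus the GFP+ difference on the log2 scale.

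In 10 genes the differences had opposite signs, though not every one of these differences passed on its own. The value was 7.33 for Gcg (2.53 in GFP- and -4.80 in GFP+ cells, adjusted p = 4.71e-05), the hormone precursor gene, and 3.75 for the amino acid carrier Slc38a5 (1.87 and -1.89, adjusted p = 4.71e-05). Gcg was not well above background on either GFP+ cluster array, so the sizes of its GFP+ difference and interaction rest on background signal there. It was 2.16 for the chloride channel Ano1, 2.05 for the kinase Wnk4 and 1.70 for the sodium pump subunit Atp1b2. It was below 0 for Krtap19-4 (-3.93), Rn18s (-3.60, ribosomal RNA), Spint2 (-3.25), Cyp17a1 (-3.13) and Dvl3 (-2.96). The GFP- difference did not pass for Krtap19-4 (-1.02, adjusted p = 0.0865), Rn18s (-0.15, 0.785), Spint2 (-0.83, 0.0816) and Dvl3 (-0.85, 0.112). Another probe of Spint2 differed by 0.50 in GFP- cells. For Atp1b2 the GFP+ difference did not pass (-0.12, adjusted p = 0.294).

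In 8 genes the difference had the same sign in both and was larger in GFP- cells. These were Abcg4 (1.77), Kel (1.59) and Gfi1 (0.35, adjusted p = 0.0466, and 0.059 with slide as a replicate block), which rose, and the platelet genes Pf4 (-1.68), Ppbp (-1.41), Treml1 (-1.32), Gp6 (-0.94, adjusted p = 0.0495) and Thbs1 (-0.40), which were lower in the clusters. Gp6 was not well above background on either GFP+ cluster array.

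In 7 blood cell genes the rise was larger in GFP+ cells: Mpo (-2.05), Wdfy4 (-1.27), Myo1g (-1.06), Hlf (-1.04, adjusted p = 0.0463), Myb (-1.01), Ccl9 (-1.01) and Rac2 (-0.995).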

How the results depend on the processing

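Under normexp background correction 14 genes were called (10 higher, 4 lower, the same 10 and 4 at least 2-fold) and 1 interaction, and the median of all genes shifted to -0.18. The 1st percentile of signal was 685 on GFP- endothelial array 2 and 56.6 to 75.3 on the others. Reversed there were B2m (0.039), Cdh5 (0.055), Cyba (0.11), Emcn (0.068), Esam (0.061), Hebp1 (0.023) and Lcp1 (0.047), and, turned negative, Bmp6 (-0.56), C1qa (-0.084), Ccl2 (-0.11), Ccl4 (-0.017), Cd14 (-0.38), Cdkn2c (-0.45), Cenpf (-0.87), Cxcl1 (-0.22), Epb42 (-0.14), Hoxa10 (-0.29), Hoxa9 (-0.15), Ifih1 (-0.40), Prox1 (-0.48), Prtn3 (-0.12), Psmb8 (-0.30), Psmb9 (-0.55), Pstpip1 (-0.39), Ptprc (-0.34), Rassf5 (-0.28), Selp (-0.85), Slc16a10 (-0.20), Slc35d3 (-0.64), Spi1 (-0.68), Tespa1 (-0.0055), Wnk4 (-0.033) and the interaction of Gfi1 (-0.59). Without 2 spots of very negative net signal, an alternative chosen after seeing the data, that percentile was 62.6, 2739 genes were called (1156 higher, 1583 lower, 112 and 19 at least 2-fold) and 3782 interactions, and the interaction of Gfi1 (-0.064) alone stayed reversed among the named genes. At least 2-fold lower were 98 genes after quantile normalization and 101 in the deposited table. With no filter 1466 were called (922 higher, 544 lower) and 2743 interactions, and with the stricter filter 228 were at least 2-fold higher. The 4 arrays alone gave 2576 (1483 higher, 1093 lower). With slide as a replicate block (paired) 5235 were called, 4464 of them also without it, and beyond the genes given with their blocked values no call of a named gene changed. Leaving out each array gave 1606 to 4214 calls (962 to 2117 higher, 644 to 2097 lower, 301 to 358 and 53 to 65 at least 2-fold) and 3589 to 4657 interactions. The share of calls that were higher was 48.8%, and 71.4% under normexp, 62.9% with no filter, 61.6% without GFP- endothelial array 2, and 59.6% and 59.9% without GFP- cluster array 1 and 2. The cause of these shifts was not tested, apart from the 2 spots. With 2 arrays of 1 RNA pool per group, small differences near the threshold are least certain, and genes not well above background have only bounds.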
